A study of Homo sapiens with 12 samples.

Results

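The HOXC and HOXD genes were followed in 2 lung adenocarcinoma cell lines, each with and without an added copy of HOXC6, a gene of the HOXC cluster. They were chosen by name, as the rows of the count table whose Ensembl identifier belongs to HOXC8, HOXC11, HOXC12, HOXC13, HOXD1, HOXD3, HOXD9, HOXD10, HOXD11 or HOXD13, and all 10 were found among the 12584 genes of the table. The rule uses no measured value. Of the 9 protein-coding HOXC genes in the annotation 4 were measured, and of the 9 HOXD genes 6. HOXC4, HOXC5, HOXC6, HOXC9, HOXC10, HOXD4, HOXD8 and HOXD12 were not analysed here, so the vector-borne gene itself could not be read in any library.

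Both lines, A549 and PC9, derive from human lung adenocarcinomas. Each was infected with the lentiviral vector pCDH carrying HOXC6 or with the same vector lacking it, and cells of both kinds were kept under neomycin selection, so that infection and selection were shared by all groups. The paper gives RPMI as the medium of A549 and DMEM as that of PC9, so line and medium cannot be told apart. This gave the groups A549-NEO, A549-HOXC6, PC9-NEO and PC9-HOXC6, with 3 poly(A) RNA-seq libraries each and 12 in all. The paper describes the 3 replicates as independent, but neither it nor the labels say whether they came from separate cultures. The p-values therefore measure only the spread between these libraries, which may be technical.

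HOX proteins are transcription factors that bind DNA through a homeodomain and give cells their position along the body axis. Mammals carry them in 4 clusters, HOXA to HOXD, in which all genes point the same way and are numbered from the 3′ end to the 5′ end. Genes of low number act in anterior tissue and genes of high number in posterior tissue and limbs. In differentiated cells many HOX genes are held silent by Polycomb proteins and kept active by trithorax proteins, and cancer lines often differ in which HOX genes they transcribe. HOX proteins commonly bind DNA together with TALE homeodomain partners of the PBX and MEIS families.

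In GRCh37, the build of the reads' alignment, the HOXC genes lie on chromosome 12 and the HOXD genes on chromosome 2, all on the plus strand. HOXC13 (ENSG00000123364) spans 54332615 to 54340328, HOXC12 (ENSG00000123407) 54348687 to 54352740, HOXC11 (ENSG00000123388) 54366910 to 54371427 and HOXC8 (ENSG00000037965) 54402769 to 54406553. HOXD13 (ENSG00000128714) spans 176957449 to 176960672, HOXD11 (ENSG00000128713) 176968944 to 176974482, HOXD10 (ENSG00000128710) 176973518 to 176984665 and HOXD9 (ENSG00000128709) 176987447 to 176989665. HOXD3 (ENSG00000128652) spans 177001340 to 177037830 and HOXD1 (ENSG00000128645) 177053396 to 177055635. The canonical transcript of HOXD3 has 4 exons and that of each other gene 2.

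The promoters of HOXD9 and HOXD10 are shown because these genes had the highest HOXD means per kb of exon in both A549 groups, while the whole HOXD group was at 0 in PC9. Each run holds 250 bases before and 50 bases from the start of the canonical transcript, read 5′ to 3′ on the plus strand of GRCh37. Capitals mark TAAT on either strand (so also ATTA), the core of many homeodomain sites.
HOXD9, chr2:176987197-176987496: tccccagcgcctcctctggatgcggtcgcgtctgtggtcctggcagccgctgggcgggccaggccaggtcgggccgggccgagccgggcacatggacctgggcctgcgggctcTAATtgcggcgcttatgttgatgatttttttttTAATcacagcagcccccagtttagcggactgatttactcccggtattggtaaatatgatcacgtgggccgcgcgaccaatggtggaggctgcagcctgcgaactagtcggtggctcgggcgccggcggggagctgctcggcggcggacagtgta
HOXD10, chr2:176981256-176981555: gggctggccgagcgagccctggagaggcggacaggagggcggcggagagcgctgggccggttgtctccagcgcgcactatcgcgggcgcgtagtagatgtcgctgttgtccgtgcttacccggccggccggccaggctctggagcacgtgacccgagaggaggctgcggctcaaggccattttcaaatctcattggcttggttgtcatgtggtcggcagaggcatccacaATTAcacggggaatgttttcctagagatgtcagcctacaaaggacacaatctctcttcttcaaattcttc

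TAAT stood in 5 of the 6 HOXD promoters, the exception being HOXD13, and in 40.5% of 20152 promoters of the same length across the annotation. The longer motif TGATTNAT, a PBX-HOX composite that overlaps TAAT where its N is A, stood in 1 of the 6, that of HOXD11, and in 1.9% of all promoters. A match is a string of letters and not a measured binding site. The 6 HOXD promoters held 23 to 36 CpG dinucleotides, against a median of 23 over all promoters, with the fewest at HOXD10 and the most at HOXD1.

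Several genes share transcribed bases with a neighbour. HOXD10 and HOXD11 share 452 bp of exon on the same strand, so reads there cannot be given to either gene alone. On the opposite strand, 1134 bp of HOXD1, 522 bp of HOXD3 and 172 bp of HOXC13 are also exon of an antisense gene. The strand setting of the counting is not given in the sources used here, and the counts of these genes and of their antisense partners could therefore be mixed. The longest run of bases shared exactly with another HOX transcript was 20 to 62 nt, shorter than the 150-bp reads.

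The libraries were shallow over the genes of the table, with total counts of 1212053 to 3286577. Group medians of the totals were 2547034 in A549-NEO, 2080832 in A549-HOXC6, 1870153 in PC9-NEO and, last, 2074975 in PC9-HOXC6. Levels are given as normalized CPM (counts scaled to library size and by the TMM method), and a gene was taken as detected in a library above 3 counts, which equals 0.914 to 2.56 normalized CPM depending on the library. Of 8 epithelial markers 5 were in the table, and all 5 (EPCAM, CDH1, KRT7, KRT18 and ELF3) were detected in every group. The single haematopoietic and the single endothelial marker in the table were detected in no group. Of 4 fibroblast markers COL1A1 alone was detected, with the 4 genes summing to 19.05 to 75.2 normalized CPM, against 8130 to 12030 for the epithelial genes.

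The first question was which of the genes each line transcribed. In A549-NEO, 7 of the 10 genes were detected in at least 2 of the 3 libraries: HOXC8, HOXC13, HOXD1, HOXD3, HOXD9, HOXD10 and HOXD11. In A549-HOXC6 they were 5, namely HOXC8, HOXC13, HOXD3, HOXD9 and HOXD10. In PC9-NEO and in PC9-HOXC6 they were 3, namely HOXC8, HOXC11 and HOXC13. HOXC8 and HOXC13 were thus the genes detected in all 4 groups, HOXC12 was detected in none, and the 6 HOXD genes had not 1 count in any of the 6 PC9 libraries. HOXD1 and HOXD11 were detected in A549-NEO and not in A549-HOXC6, with counts near the limit in both groups. In bulk RNA such as this, fewer cells that express a gene and less RNA per cell cannot be told apart.

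**Figure D1:**
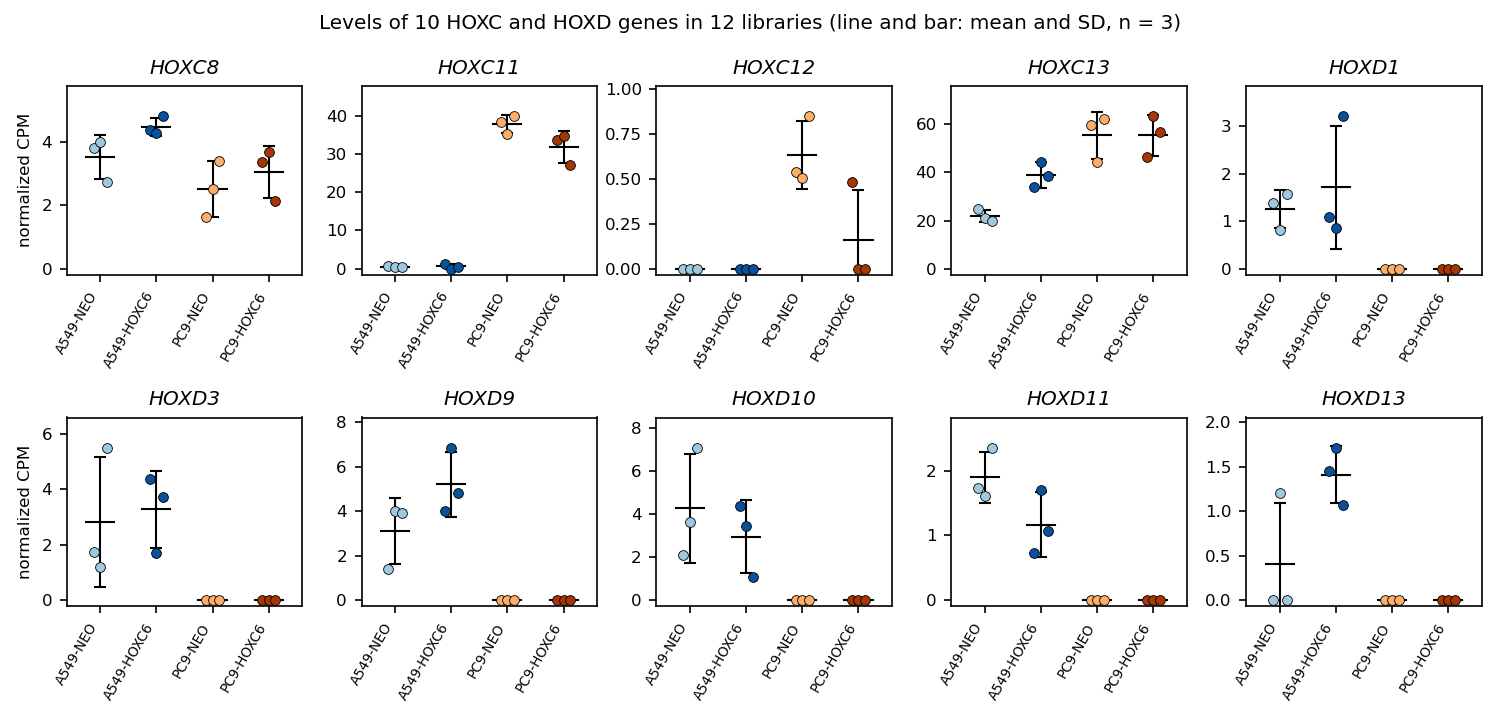
Normalized CPM (linear vertical axes, scaled to each gene) of the 10 genes in the 12 libraries, grouped on the horizontal axis by line and vector. Points are libraries, and lines and bars are the mean and SD of 3. HOXC11 sat at 27.1 to 39.8 in PC9 and at 0 to 1.09 in A549, whereas every HOXD gene was at 0 in PC9.

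HOXC11, a posterior HOX gene of the limb and tail region, was the member that set PC9 apart. Its counts were 71, 70 and 94 in the PC9-NEO libraries against 70, 47 and 89 in those of PC9-HOXC6, but 2, 1 and 1 in the A549-NEO libraries against 3, 0 and 1 in those of A549-HOXC6. No A549 library rose above 3 counts and no PC9 library fell below 47, so the lines were far apart and the vectors were not. The mean level was 37.76 ± 2.36 normalized CPM in PC9-NEO and 31.8 ± 4.10 in PC9-HOXC6 (SD, n = 3 each), against 0.495 ± 0.171 in A549-NEO and 0.541 ± 0.545 in A549-HOXC6. The summed counts gave a PC9 to A549 ratio of 75.1 between the empty-vector groups, with an exact 95% counting interval of 28.9 to 278. The HOXC6 groups gave a ratio of 44.4, with an interval of 17.1 to 165. These intervals rest on 4 counts in each A549 group and cover counting error only. In edgeR's quasi-likelihood test HOXC11 was lower in A549 by a log2 fold change of -6.05 (SE 0.372, adjusted p = 5.27e-17) between the NEO groups and of -5.41 (SE 0.443, adjusted p = 1.13e-13) between the HOXC6 groups. HOXC11 entered both tests through its PC9 libraries alone, so the direction was fixed by the filter on low counts.

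HOXC13, known for its role in hair follicles and nails, was the most abundant of the 10 genes in every group. Its levels were 24.6, 21.25 and 19.6 normalized CPM in A549-NEO and 59.9, 44.2 and 62.25 in PC9-NEO. All PC9-NEO libraries lay above all A549-NEO libraries, with means of 55.45 ± 9.80 and 21.8 ± 2.54 (SD, n = 3 each). The edgeR log2 fold change of A549-NEO against PC9-NEO was -1.30 (SE 0.168, adjusted p = 1.21e-08). Between the HOXC6 groups the distance was smaller, with 33.8, 44.4 and 38.4 normalized CPM for A549-HOXC6 against 46.2, 63.3 and 56.65 for PC9-HOXC6, and the groups met almost edge to edge without overlap. The log2 fold change there was -0.55 (SE 0.174, adjusted p = 0.00591 in edgeR), which passed the p threshold but not the fold threshold of 1 used for calls. From the lowest group to the highest, HOXC13 ran from A549-NEO through A549-HOXC6 to the PC9 groups. The A549-HOXC6 and PC9-NEO ranges overlapped, as did those of PC9-NEO and PC9-HOXC6.

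Between the empty-vector groups, 2 of the 10 genes passed the filter on low counts, HOXC11 and HOXC13, and both were called higher in PC9. HOXC11, with 3 counts or fewer in every A549 library, passed through its PC9 libraries alone and could only be called higher there. Calls needed a log2 fold change of more than 1 in size besides an adjusted p under 0.05, and 36% of the 9076 genes tested were called in this comparison. The same 2 genes were tested between the HOXC6 groups and HOXC11 was called, where 33.9% of 8828 genes were. Without the fold criterion both were past the p threshold, against 66.5% of all genes tested. A change larger in size than that of HOXC11 was found in 3.7% of the genes tested between the NEO groups and in 3.9% between the HOXC6 groups. For HOXC13 these shares were 26.3% and 57.4%. The sum of the 4 HOXC genes was 3.73 times higher in PC9-NEO than in A549-NEO (counting interval 3.18 to 4.39) and 2.07 times higher in PC9-HOXC6 than in A549-HOXC6 (1.79 to 2.42).

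The other HOXC genes were close to the limit of detection. HOXC12, whose start lies between those of HOXC13 and HOXC11, had 0 counts in all 6 A549 libraries. In PC9 it had 1, 1 and 2 counts with the empty vector and 1, 0 and 0 with HOXC6. It was thus at or below the floor in PC9, where the measured genes on both sides of it were detected in every library. HOXC8, a gene of the thoracic region, had 11, 10 and 7 counts in A549-NEO, 12, 5 and 9 in A549-HOXC6, 3, 5 and 8 in PC9-NEO and, last, 7, 5 and 7 in PC9-HOXC6. Its means were 3.52 ± 0.680, 4.48 ± 0.284, 2.51 ± 0.885 and 3.06 ± 0.820 normalized CPM in that order (SD, n = 3 each). The A549 to PC9 ratio of HOXC8 was 1.37 between the NEO groups (counting interval 0.716 to 2.71) and 1.59 between the HOXC6 groups (0.844 to 3.03), and a difference between the lines was not detectable at this depth.

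The HOXD genes showed the opposite pattern, with low counts in A549 and none in PC9. Summed over the 6 genes, the counts were 24, 31 and 52 in the A549-NEO libraries against 44, 19 and 28 in those of A549-HOXC6, or 13.7 ± 6.14 and 15.7 ± 0.687 normalized CPM (SD, n = 3 each). With every PC9 library at 0, levels were set against a floor of 3 counts per PC9 library. The mean HOXD sum was 9.36 times that floor in A549-NEO against PC9-NEO and 10.3 times in A549-HOXC6 against PC9-HOXC6. Such folds use the A549 mean and leave out the spread of the A549 libraries, so they are not lower limits. The PC9-NEO totals were 1768574 to 2233100 counts, and the deepest library of all, at 3286577 counts, was from PC9-HOXC6.

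HOXD10 and HOXD9, neighbours in the middle of the cluster and active in limb and spinal cord patterning, had the highest HOXD means per kb of exon in both A549 groups. HOXD10 had 6, 9 and 18 counts over the A549-NEO libraries against 12, 4 and 2 in those of A549-HOXC6. HOXD9 had 4, 10 and 10 counts over the A549-NEO libraries against 11, 8 and 9 in those of A549-HOXC6. The HOXD10 mean was 2.90 times the PC9 floor in A549-NEO and 1.94 times in A549-HOXC6, and the HOXD9 mean 2.12 and 3.42 times. At 1.07 normalized CPM, HOXD10 in A549-HOXC6 replicate 3 lay below the mean PC9-HOXC6 floor of 1.52. Each of these counts is small, and the 3 libraries of a group spread widely, as the 2 to 12 counts of HOXD10 in A549-HOXC6 show.

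HOXD3, an anterior gene with roles in the neck skeleton and in cell adhesion, had 5, 3 and 14 counts over the A549-NEO libraries against 12, 2 and 7 in those of A549-HOXC6. The HOXD3 mean was 1.92 times the PC9 floor in A549-NEO and 2.15 times in A549-HOXC6. HOXD11, a gene of the forearm and kidney, had 5, 4 and 6 counts over the A549-NEO libraries against 2, 2 and 2 in those of A549-HOXC6. Its mean was 1.29 times the PC9 floor in A549-NEO, and no such value is given in A549-HOXC6, where no library exceeded 3 counts. HOXD1, the most anterior gene of the cluster, had 4, 2 and 4 counts over the A549-NEO libraries against 3, 1 and 6 in those of A549-HOXC6. HOXD13, the most posterior gene and a regulator of digit formation, had 0, 3 and 0 counts over the A549-NEO libraries against 4, 2 and 2 in those of A549-HOXC6. For HOXD1 and HOXD13 no value over the PC9 floor is given in either vector group.

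**Figure D2:**
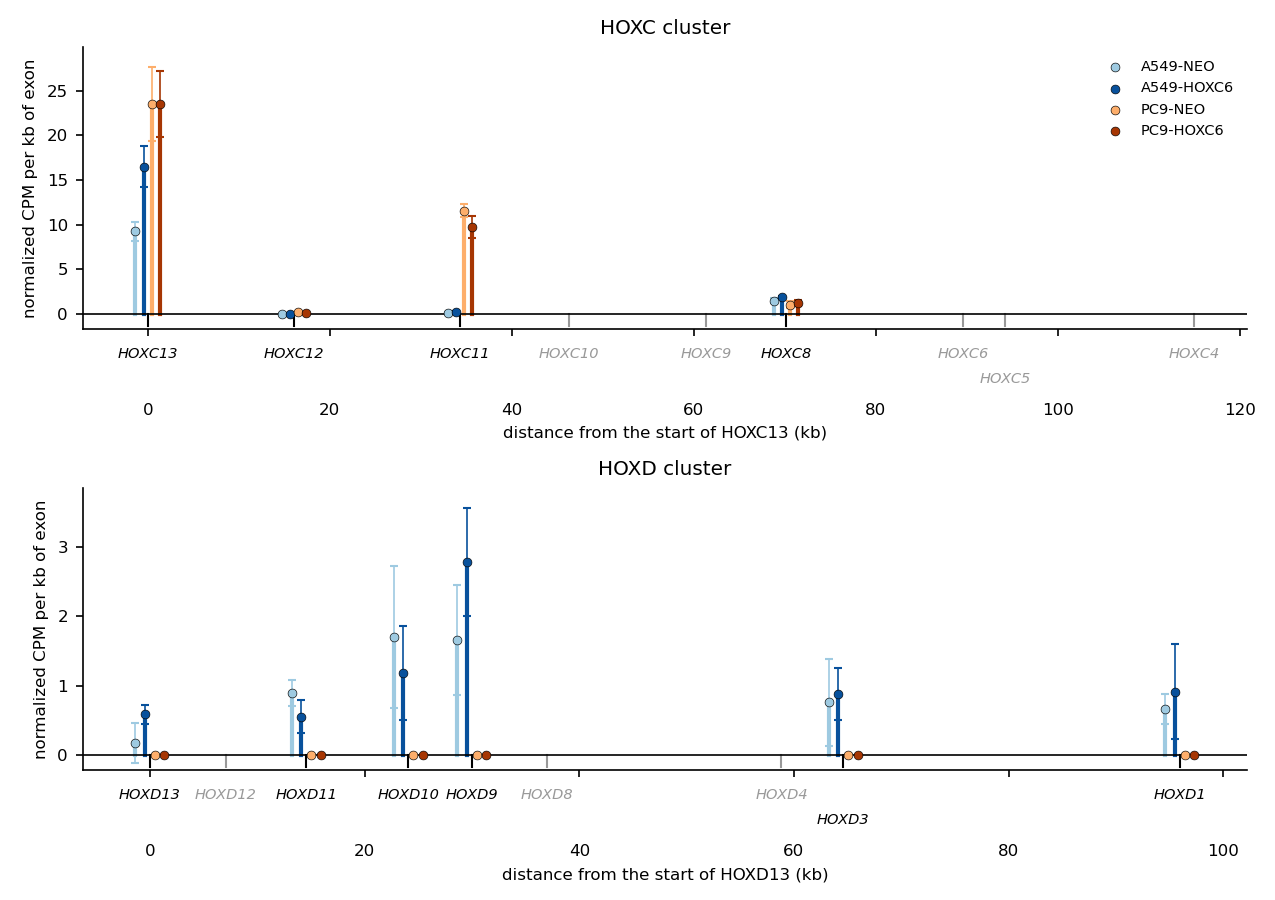
Mean level (normalized CPM per kb of exon, linear axis, SD of 3 libraries as bars) of each measured gene at the distance of its start from HOXC13 or HOXD13, in kb. Grey names mark genes not analysed here, and the 4 groups are drawn side by side with a small offset. HOXC13 and HOXC11 stand out in PC9, HOXC12 between them does not, and the HOXD signal comes from A549 alone; the 2 panels have different vertical scales.

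The 6 HOXD genes failed the filter on low counts in both comparisons between the lines, so they had no adjusted p in the reported fits. In a fit without that filter, 5 HOXD genes were called higher in A549-NEO than in PC9-NEO by edgeR: HOXD10 (adjusted p = 2.22e-06), HOXD9 (7.94e-05), HOXD3 (1.78e-04), HOXD11 (0.00261) and HOXD1 (0.0169). In that fit 19.2% of 11215 genes were called higher in A549 and 15% higher in PC9. The HOXC6 groups also gave 5 calls without the filter: HOXD9 (adjusted p = 5.09e-06), HOXD3 (1.97e-04), HOXD10 (6.50e-04), HOXD1 (0.0139) and HOXD13 (0.0312), where 16.5% of 11734 genes were higher in A549 and 13.4% higher in PC9. HOXD13 in the first comparison (adjusted p = 0.224) and HOXD11 in the second (0.0660) were not called. With every PC9 library at 0, the HOXD genes entered these fits through A549 alone and could only be called higher there. The calls therefore add no support to the counts. A fitted fold change against a group at 0 depends on the prior count, so none is given. With a replicate block 3 HOXD genes were called between the HOXC6 groups, and without PC9-HOXC6 replicate 3 also 3.

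A gene that one line transcribes and the other leaves at 0 in all 6 libraries was uncommon. Of 9111 genes detected in both A549 groups, 160 (1.76%) were at 0 in every PC9 library, among them HOXD3, HOXD9 and HOXD10. Of the 5 members detected in both A549 groups, the other two, HOXC8 and HOXC13, were found in PC9. In the opposite direction 30 of 8896 genes (0.337%) detected in both PC9 groups were at 0 in A549, none of them a member, since HOXC11 kept 1 to 3 counts in 5 of the 6 A549 libraries. HOXD3, HOXD9 and HOXD10 share a cluster and are not independent cases. These shares are not matched for level, and 0 counts are reached more easily at low levels. In A549-NEO, HOXD3, HOXD9 and HOXD10 stood above 30.1%, 37.7% and 38% of 12463 genes per kb of exon.

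Next, the effect of the added HOXC6 on its relatives was examined within each line. In A549, HOXC13 was the member with a detectable difference. Its levels were 33.8, 44.4 and 38.4 normalized CPM in A549-HOXC6 and 24.6, 21.25 and 19.6 in A549-NEO, so that every HOXC6 library lay above every NEO library. The means were 38.9 ± 5.34 and 21.8 ± 2.54 (SD, n = 3 each). The ratio of the summed counts, scaled for depth, was 1.71 with a counting interval of 1.39 to 2.095, and the edgeR log2 fold change was 0.75 (SE 0.188, adjusted p = 0.00234). This passed the p threshold, as 39.6% of all 8771 genes tested did, but stayed below the fold threshold. Of the 10 genes 3 were tested in A549 and 0 were called, against 7.21% of all genes tested. Only 1 of the 3, HOXC13, had an unadjusted p under 0.05 (0.000426 in edgeR, a model over all genes), and DESeq2 also called 0.

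The differences between the vectors moved with the GC content of the transcripts in both lines. Across genes, which are not independent replicates, the log2 fold change of HOXC6 against NEO correlated with exonic GC content at a Spearman rho of 0.531 in A549 (8712 genes) and 0.526 in PC9 (8360 genes), and hardly in the comparison of the NEO lines (-0.0144, 9014 genes). HOXC13 has 57.45% GC in its exons against a median of 48% over the genes tested. Among 1112 genes within 2 percentage points of its GC content the median log2 fold change in A549 was 0.22, and 9.2% of them lay above HOXC13. With GC content and length corrected for, the HOXC13 difference in A549 was 0.40 (SE 0.184, adjusted p = 0.0929 in edgeR), no longer past the p threshold. Thinning all libraries to the same depth gave 0.61 (adjusted p = 0.0732 in edgeR).

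The other genes of A549 gave no difference past the threshold. HOXD9 had 5.21 ± 1.46 normalized CPM in A549-HOXC6 and 3.105 ± 1.49 in A549-NEO (SD, n = 3 each), with a log2 fold change of 0.64 (SE 0.491, adjusted p = 0.318 in edgeR) and overlapping groups. HOXC8 had a log2 fold change of 0.30 (SE 0.452, adjusted p = 0.632 in edgeR). The remaining 7 genes were not tested with the filter. By counts, the A549-HOXC6 to A549-NEO ratio was 0.746 for HOXD10 (interval 0.396 to 1.365), 0.547 for HOXD11 (0.174 to 1.49), 1.31 for HOXD3 (0.683 to 2.49) and 1.37 for HOXD1 (0.511 to 3.66). HOXD13, with 8 and 3 counts, had a ratio of 3.65 with an interval of 0.876 to 21.35. All of these intervals include 1 and a change of 2-fold in 1 direction or the other, so such a change was not detectable at this depth. The HOXD sum as a whole had a ratio of 1.16 (0.870 to 1.55).

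In PC9, no member differed past the threshold between the vectors. HOXC13 had 59.9, 44.2 and 62.25 normalized CPM with the empty vector and 46.2, 63.3 and 56.65 with HOXC6, with overlapping groups and means of 55.45 ± 9.80 and 55.4 ± 8.61 (SD, n = 3 each). Its log2 fold change was -0.017 (SE 0.149, adjusted p = 0.950 in edgeR), and the ratio of counts was 0.982 with an interval of 0.846 to 1.14. HOXC11 had 38.3, 35.2 and 39.8 normalized CPM with the empty vector and 33.7, 34.6 and 27.1 with HOXC6. All 3 HOXC6 values lay below the lowest NEO value, but the log2 fold change of -0.28 (SE 0.167, adjusted p = 0.220 in edgeR) missed the threshold. Corrected for GC content and length, the value was -0.47 (SE 0.165, adjusted p = 0.0421 in edgeR), past the p threshold and still below the fold threshold. Of the 10 genes 2 were tested and 0 called, against 4.53% of 8419 genes, while 27.5% of all genes had an adjusted p under 0.05. Among the 2, 0 had an unadjusted p under 0.05, and DESeq2 called 0. HOXC8 had a count ratio of 1.10 (0.534 to 2.28). The HOXD genes stayed at 0 in all 3 PC9-HOXC6 libraries, as in PC9-NEO, and a level below the floor of 3 counts per library could not be seen.

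**Figure D3:**
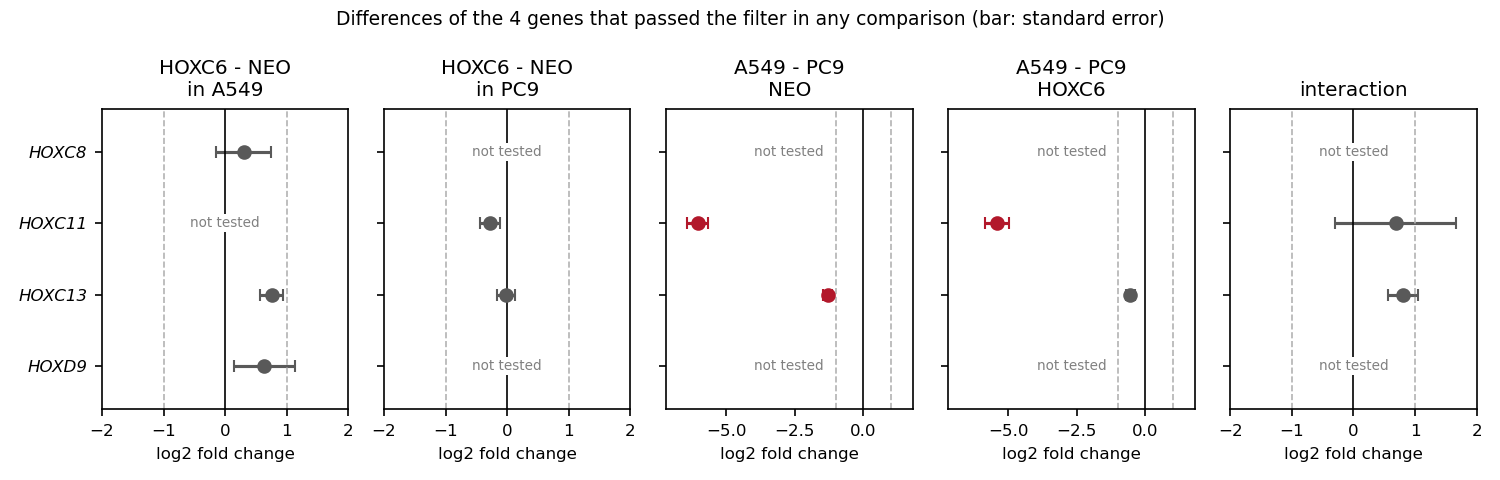
Log2 fold changes with standard errors (edgeR) of the 4 genes that passed the filter in any comparison. Each panel is 1 comparison, the panels between the lines have a wider horizontal axis, dashed lines mark the fold threshold, and called genes are red. HOXC11 at -6.05 and -5.41 and HOXC13 at -1.30 were called between the lines and nothing within a line.

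The difference between the 2 vector effects was tested as an interaction over all 12 libraries. For HOXC13 the effect in A549 minus the effect in PC9 was 0.81 on the log2 scale (SE 0.241, adjusted p = 0.0141 in edgeR), past the p threshold, as for 19.4% of 9229 genes, and below the fold threshold. Of the 2 members tested 0 were called, against 5.15% of all genes tested, by DESeq2 also 0, and 1 had an unadjusted p under 0.05. The HOXC13 interaction, corrected for GC content and length, was 0.71 (SE 0.233, adjusted p = 0.0226 in edgeR). Thinned to equal depth it was 0.63 (adjusted p = 0.209 in edgeR), and without PC9-NEO replicate 3 it was 0.71 (adjusted p = 0.0503 in edgeR). For HOXC11, with 4 counts in each A549 group, the interaction was 0.68 (SE 0.974, adjusted p = 0.687 in edgeR) and changed sign between settings.

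**Figure D4:**
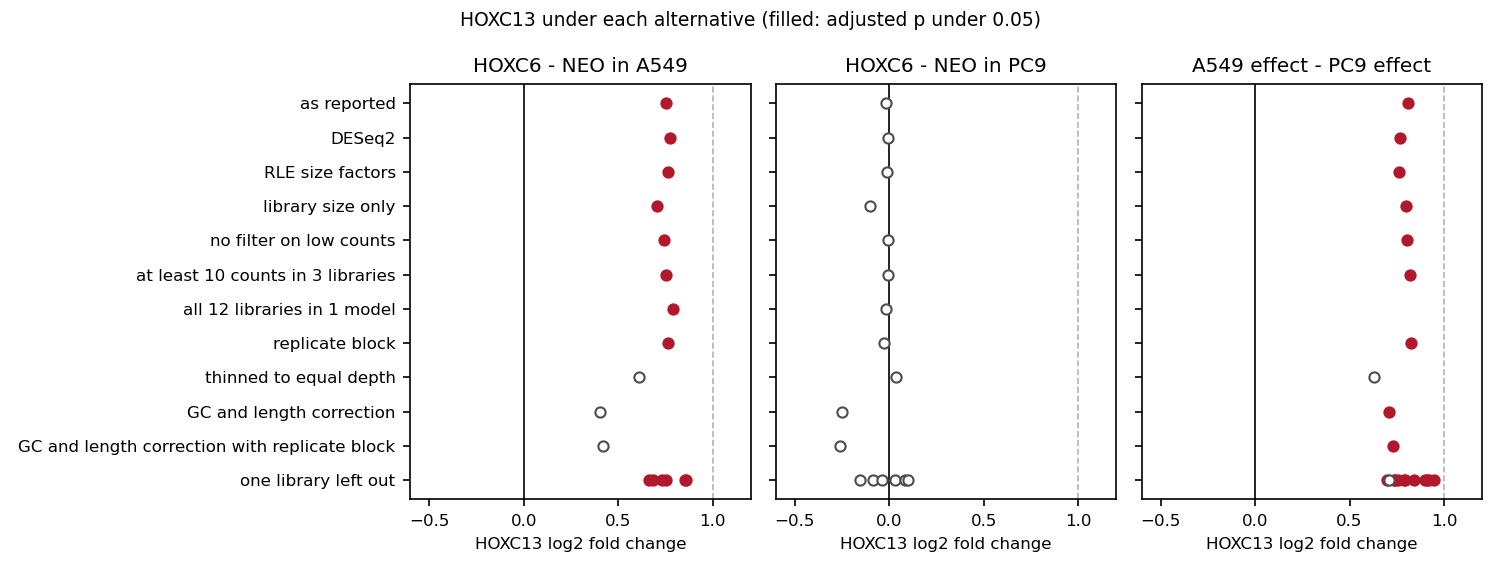
HOXC13 log2 fold change (horizontal axis) under the reported setting and each alternative (rows), for the HOXC6 effect in A549, the effect in PC9 and their difference. Filled points have an adjusted p under 0.05, and the dashed line is the fold threshold. The A549 values run from 0.40 to 0.86, the PC9 values from -0.26 to 0.10 and the differences from 0.63 to 0.94.

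Levels per kb of exon allow the genes to be set in order within a group. The length used is that of all annotated exons of a gene together. It exceeds the canonical transcript for HOXD3 (3698 against 2449 bp), HOXD10 (2488 against 1785) and HOXD11 (2116 against 1705). The values per kb of these genes, and so their places in the order, depend on that choice. HOXC13 came first in every group, with 9.26 ± 1.076, 16.5 ± 2.27, 23.5 ± 4.16 and 23.5 ± 3.65 normalized CPM per kb in A549-NEO, A549-HOXC6, PC9-NEO and PC9-HOXC6 (SD, n = 3 each). It stood above 69.6%, 79.3%, 86% and 85.2% of 12463 genes in those groups. In PC9, HOXC11 followed with 11.6 ± 0.723 and 9.74 ± 1.26 normalized CPM per kb, clear of HOXC13 above it and of HOXC8 below it. HOXC8 in PC9 had 1.04 ± 0.366 and 1.27 ± 0.339, and HOXC12 0.193 ± 0.0579 and 0.0492 ± 0.0851.

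In A549 the genes behind HOXC13 were close together. HOXD10 had 1.71 ± 1.02, HOXD9 1.66 ± 0.797 and HOXC8 1.46 ± 0.281 normalized CPM per kb in A549-NEO, and each overlapped its neighbour in that order. HOXD11 with 0.896 ± 0.189 was followed by HOXD3 with 0.759 ± 0.632 and HOXD1 with 0.664 ± 0.212, again with overlaps. HOXD13 with 0.166 ± 0.287 and HOXC11 with 0.152 ± 0.0524 closed the list ahead of HOXC12 at 0. In A549-HOXC6, HOXD9 with 2.79 ± 0.782 came next and HOXC8 with 1.85 ± 0.118 after it, each clear of its neighbours, and HOXD10, HOXD1, HOXD3, HOXD13 and HOXD11 followed between 1.19 and 0.552 with overlapping libraries. Along the HOXD cluster the highest means in both A549 groups were thus at the adjacent genes HOXD9 and HOXD10, with lower means at the outermost genes HOXD13 and HOXD1.

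Pearson correlation of log2 CPM over the 12 libraries, among 9228 other genes, named the genes whose pattern was most like that of the 2 members that passed the filter over all libraries. For HOXC11 these were BRPF3 (r = 0.997), SLC4A11 (0.996) and PRDX2 (0.996). For HOXC13 they were WRNIP1 (0.979), ANXA9 (0.969) and AP2M1 (0.961). The 12 libraries are 4 groups of 3, so these values hold the step between the lines.

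The rest of the HOX family was described from a list of the HOXA and HOXB genes, of which 15 of 21 were in the table. Of all genes tested, 36% were called between the NEO groups and 33.9% between the HOXC6 groups. The shares were 7.21% in A549, 4.53% in PC9 and 5.15% in the interaction. Between the NEO groups 7 of 12 tested were called higher in A549 and 1 higher in PC9, with a median log2 fold change of 2.61 against 0.015 over all genes. HOXB8 had 27.97 ± 2.27 normalized CPM in A549-NEO and 0.423 ± 0.733 in PC9-NEO (SD, n = 3 each), and HOXA2 had 21.85 ± 5.69 and 0.642 ± 0.568. In the HOXC6 groups 6 of 11 were higher and 1 lower in A549. Over 6 libraries each, HOXA13 had 128 counts in A549 and 0 in PC9, the HOXD pattern, and HOXA9 had 8 in A549 and 82 in PC9, the HOXC11 pattern. In A549, HOXC6 against NEO gave 1 call among 11 genes, HOXB13, another posterior gene, which rose from 17.25 ± 1.35 to 39.7 ± 4.83 normalized CPM (log2 fold change 1.18, SE 0.190, adjusted p = 1.82e-05 in edgeR). Like HOXC13 it is rich in GC (57.7%), and its corrected log2 fold change was 0.86, below the fold threshold (adjusted p = 5.15e-04 in edgeR). In PC9 0 of 6 were called, and in the interaction 0 of 12.

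Proteins that work with HOX genes or on their chromatin were read in the same fits, and values given after a gene are log2 fold changes. Their calls are a description, beside 36% of all genes tested between the NEO groups and 33.9% between the HOXC6 groups. Within the lines the shares were 7.21% in A549 and 4.53% in PC9, and in the interaction 5.15%. Of the TALE partners 7 of 9 were in the table, and 4 were tested between the NEO groups, with PBX3 higher in A549 (2.76) and MEIS2 lower (-2.28), as in the HOXC6 groups (2.16 and -1.83). No TALE gene was called within a line or in the interaction. Among 17 Polycomb genes, all tested, EZH1 (2.66) was higher and EZH2 (-1.997) and CBX7 (-1.30) were lower in A549-NEO than in PC9-NEO, with a median of -0.007 over the list. EZH1 and EZH2 are the catalytic subunits of PRC2. In the HOXC6 groups 2 Polycomb genes were higher in A549, EZH1 and PHF19, and 4 were lower, EZH2, CBX7, PHF1 and BMI1, of which PHF1 (-1.03) was at -0.99, below the fold threshold, with GC content and length corrected for. HOXC6 against NEO in A549 gave 1 Polycomb call, BMI1 of PRC1, which fell by 1.63 on the log2 scale (SE 0.354, adjusted p = 5.94e-04 in edgeR). In PC9 0 were called, and in the interaction 2, PHF1 (-1.19) and EZH1 (-1.11).

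Of 11 trithorax and COMPASS genes 2 fell in A549-HOXC6, KMT2A (-1.005) and ASH1L (-1.14), and 0 were called in PC9 or in the interaction. Of all genes tested, 7.21%, 4.53% and 5.15% were called in A549, in PC9 and in the interaction. Between the lines KMT2C was lower in A549-NEO (-1.37), and KMT2C (-1.48) and KMT2A (-1.02) were lower in A549-HOXC6. In those comparisons 36% and 33.9% of all genes tested were called. Of 5 genes of CTCF and cohesin, SMC3 fell by 1.58 in A549 and fell by 1.81 in PC9 on the log2 scale, and 0 were called between the lines or in the interaction. With GC content and length corrected for, KMT2A (-0.80) and SMC3 (-0.92) in A549 were below the fold threshold. Of the retinoid and CDX genes, which include known upstream regulators of HOX clusters, 7 of 10 were in the table, and RARA, RARB and CYP26B1, the 3 tested, were all higher in A549-NEO (1.15, 3.72 and 2.13). CYP26B1 (2.24) and RARB (4.72) were also called between the HOXC6 groups, and 0 of the list were called within a line or in the interaction.

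Of the non-HOX genes flanking the 2 clusters the table held 15, of which 14 were tested between the NEO groups, with ATP5MC2 higher in A549 (1.23), NFE2 lower (-4.98) and a median of -0.097 against 0.015 over all genes. NFE2 was also lower in A549 between the HOXC6 groups (-3.63), the single call among 14 there. Of all genes tested, 36% were called between the NEO groups and 33.9% between the HOXC6 groups. NFE2 lies on the chromosome of the HOXC genes and, like HOXC11, was near the floor in A549-NEO, with 0.246 ± 0.214 normalized CPM against 9.74 ± 1.997 in PC9-NEO (SD, n = 3 each). Within the lines 0 of 13 were called in A549 and 1 of 14 in PC9, again NFE2 (1.16, or 0.96 with GC content and length corrected for), and 0 in the interaction. The called genes beyond the first 3 of a list by adjusted p were named after their values were seen.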

How the data were processed

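Read counts per gene were deposited by the authors as whole numbers, 1 column per library and without normalization or pooling. Per the methods and labels, poly(A) RNA was prepared with a directional kit, base calls were made with bcl2fastq 2.19, reads were aligned with HISAT2 2.1.0 to GRCh37.p13 and counted with HTSeq 0.9.1. The strand setting and annotation release are not given in the sources used here. The table held 12584 complete genes, and 1 incomplete entry was left out. Of these, 12463 were found in GENCODE v44lift37, which gave names, positions, lengths and sequences. Other genes were not analysed here, and HOXC promoter sequences are not reported here.

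Groups came from the sample titles. The members and lists were chosen with earlier results of these data known. All 10 members are named whatever their values, with up to 3 genes per list by adjusted p. Counts were scaled by TMM, filtered with filterByExpr and tested with edgeR 4.0.16 (R 4.3.3) by quasi-likelihood, with Benjamini-Hochberg adjustment over all genes tested. Intervals are exact 95% intervals of counts and cover counting error only, as do floors of 3 counts. Replicate libraries differed by more than sampling noise (chi-square per degree of freedom 1.59 to 4.41 over 12 pairs). The fits were tested on simulated data. Alternatives were DESeq2 1.42.0, RLE or library-size scaling, other filters, thinning, a replicate block, left-out libraries, 1 model over 12 libraries and a correction for GC content and length (mgcv 1.9.3).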

Additional observations from a re-analysis of the deposited data

Results flagged for a closer look

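The HOXC6 effects on HOXC13 differed between the 2 lines past the p threshold, by the test of the difference itself, but not past the fold threshold. The effect in A549 minus the effect in PC9 was 0.809 on the log2 scale (SE 0.241, adjusted p = 0.0141 in edgeR over 12 libraries), from 0.75 in A549 and -0.017 in PC9. The difference missed the p threshold when the libraries were thinned to equal depth (0.63, adjusted p = 0.209 in edgeR) and without PC9-NEO replicate 3 (0.71, adjusted p = 0.0503 in edgeR). The A549 effect was 0.40 (adjusted p = 0.0929 in edgeR) with GC content and length corrected for, and the difference was then 0.71 (adjusted p = 0.0226 in edgeR). All 3 A549-HOXC6 libraries lay above all 3 A549-NEO libraries, and the PC9 groups overlapped.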

How the results depend on the processing

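HOXC11 was called in both comparisons between the lines, and HOXC13 between the NEO groups, under each alternative run. With 3 counts or fewer in every A549 library, HOXC11 could only be called higher in PC9, so its calls add no support to the counts. For the number of members called, dropping the fold criterion gave 1 in A549, 2 between the HOXC6 groups and 1 in the interaction, and dropping the filter on low counts gave 7 between the NEO groups and 6 between the HOXC6 groups. Leaving out 1 library kept these numbers at 0 in A549, in PC9 and in the interaction, at 2 between the NEO groups and at 1 between the HOXC6 groups. The HOXD genes called without the filter could only be higher in A549. They numbered 4 to 5 between the NEO groups and 3 to 4 between the HOXC6 groups when a library was left out. DESeq2 gave 4 in each. Above 10 counts 1 member was detected in each A549 group, and above 0 counts 9 were detected in A549-HOXC6.

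HOXC13 in A549 kept its direction in 16 alternatives, from 0.40 to 0.86, with an adjusted p of 6.48e-04 to 0.0929 in edgeR or DESeq2, under 0.05 in 13 of them. Its interaction was under 0.05 in 19 of 21 (0.00533 to 0.209), its difference between the HOXC6 groups in 15 of 16, and HOXC11 in PC9 in 2 of 16. HOXC13 in PC9 changed sign when thinned (0.035) and without PC9-NEO replicate 1 (0.032), PC9-NEO replicate 3 (0.083) or PC9-HOXC6 replicate 1 (0.101), with a range of -0.15 to 0.10 over the left-out libraries. The HOXC11 interaction changed sign when thinned (-0.943) and without A549-HOXC6 replicate 1 (-0.266), with a range of -0.27 to 1.003. The cause was not tested.

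The replicate numbers did not pair the samples. The mean correlation of same-numbered libraries was 0.00316 in A549, 0.00335 in PC9, -0.0232 between the NEO groups and 0.00946 between the HOXC6 groups. With a replicate block the members called were 0 in A549, 0 in PC9, 2 between the NEO groups and 1 between the HOXC6 groups, as without it, and HOXD genes called without the filter between the HOXC6 groups numbered 3. Depth limits most members: apart from HOXC13, and HOXC11 in PC9, no member exceeded 18 counts in any library. Alternatives without the filter for the HOXD genes were chosen after seeing the data.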
